A study of Mus musculus with 3 samples.

Results

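Calmodulin is the small protein through which most neuronal enzymes sense calcium, and *Calm2* and *Calm3* are separate genes that encode it. Neurogranin (*Nrgn*), GAP-43 (*Gap43*) and PEP-19 (*Pcp4*) bind calmodulin through an IQ motif and set how much of it is free, neurogranin in dendrites and GAP-43 in growth cones and axons. CaMKII (*Camk2a*, *Camk2b*) is the calmodulin-dependent kinase of dendritic spines, *Camk2n1* encodes an inhibitor of it, and *Ncs1* encodes a membrane-bound calcium sensor of its own family that acts beside calmodulin. The 9 genes described here are *Calm2*, *Calm3*, *Ncs1*, *Nrgn*, *Gap43*, *Pcp4*, *Camk2a*, *Camk2b* and *Camk2n1*, out of 14933 genes in the table of filtered cells. They were chosen by earlier values of these same data, the raw UMIs (unique molecular identifiers, each marking 1 captured mRNA) per library and cell class, so their differences between libraries and classes are given as a description.

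The study asked which genes depend on *Tbr1*, a T-box transcription factor, in layer 5 neurons of the medial prefrontal cortex (mPFC) at P5. Single tdTomato-positive cells were sorted and sequenced as 1 library per genotype, all on C57Bl6 and all carrying *Rbp4-cre* and the tdTomato reporter: *Tbr1* wild-type (Rbp4cre::tdTomato), *Tbr1* layer5 heterozygous (Tbr1f/+::Rbp4cre::tdTomato) and *Tbr1* layer5 homozygous (Tbr1f/f::Rbp4cre::tdTomato). *Rbp4-cre* is a transgene active in layer 5 projection neurons, so floxed copies of *Tbr1* are cut in these cells and kept elsewhere. Homozygous cells lose both copies, heterozygous cells lose 1 and keep 1, and wild-type cells carry no floxed copy. The excised exons encode the T-box DNA-binding region. The number of mice behind each library was not stated. In the text, 3 values in a row are those of wild-type, then heterozygous, then homozygous cells, and a pair of ratios is heterozygous and then homozygous over wild-type. With 1 library per genotype there was no test between genotypes, and all intervals given are 95% intervals of counting error only. They do not measure how far replicate mice would differ.

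The authors' lists divided the cells into neurons that they kept for differential expression (typical), neurons that they set aside (atypical) and filtered cells outside the neuronal list (outside). *Nrgn* was itself used for both divisions: it was 1 of the markers by which neuronal clusters were picked, and low *Nrgn* and *Neurod6* described the neurons set aside. The class differences of *Nrgn* are therefore not independent of how the classes were chosen and are given as a description. The libraries held 1778, 5357 and 3935 typical cells, 304, 107 and 462 atypical cells, and 2873, 1398 and 1182 outside cells. Summed UMIs per library and class ranged from 216259 to 10418228, and the median typical cell held 1901, 1743 and 1375 UMIs. The libraries shared 37 to 58 cell barcodes per pair, where random overlap of the barcodes would give 37.5 to 51.9. Levels are UMIs per 1000000 UMIs of the class (CPM). Since this 3′ assay counts a transcript once at its end, levels were not divided by transcript length. *Tbr1* itself had 27.5, 30.7 and 22.4 CPM in typical cells (101, 320 and 136 UMIs), and 3′ counts do not cover the excised exons, so they do not check the genotype. Of the 9 excitatory neuron markers, 9 had UMIs in typical cells of the wild-type library and summed to 1135 CPM there, against 1203 and 1312 CPM in the mutant libraries. An astrocyte marker list summed to 5977 to 6875 CPM in typical cells, with 8 of 8 genes detected in each library. Within it *Fabp7* gave 4775 to 5713 CPM, *Aldoc* 602 to 670 CPM, *Slc1a2* 166 to 191 CPM, *Slc1a3* 116 to 147 CPM and *Aqp4*, the lowest, 31.9 to 41.2 CPM, beside 39.5 to 44.0 CPM of the excitatory marker *Neurod2*. The part of astrocyte RNA in the levels of the 9 genes was not tested.

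*Calm2* and *Calm3* encode the same protein, with 149 of 149 residues equal, and differ in their bases. *Calm2* (chr17:87433412-87446935, minus strand, GRCm38) shares 82.6% of 447 coding bases with *Calm3* (chr7:16915379-16924114, minus strand). The coding bases of the first calcium-binding loop, bases 61 to 96 of each coding sequence and within 1 exon, are shown because they make this visible. Capitals mark the 7 of 36 positions at which the 2 genes differ.
Calm2, chr17:87435873-87435908: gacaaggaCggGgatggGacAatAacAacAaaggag
Calm3, chr7:16917667-16917702: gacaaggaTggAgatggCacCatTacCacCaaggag
At the 3′ ends, which this assay reads, no stretch of 90 bases in the last 500 bases of a *Calm2* or *Calm3* coding transcript was found in a transcript of another gene, so no stretch of that length is ambiguous between the 2 genes. Of stretches of 50 bases, 2.70% of those of *Calm2* were shared with *Gm7308*. *Pcp4* was the exception among the 9 genes. Of its stretches of 90 bases, 30.8% were also in annotated transcripts of its neighbor *Igsf5*, and how the counting treated such reads is not given in the sources used here.

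The calmodulin-binding IQ motifs of *Nrgn* (chr9:37544492-37552904) and *Pcp4* (chr16:96467606-96525793) are shown as coding bases, since this motif is what the proteins share. Capitals mark codons 1, 2, 6 and 11 of the motif, which are those for isoleucine, glutamine and 2 basic residues.
Nrgn, chr9:37546061-37546093, minus strand: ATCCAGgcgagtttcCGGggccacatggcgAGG
Pcp4, chr16:96525464-96525496, plus strand: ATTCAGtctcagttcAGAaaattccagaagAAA
The motif lies at residues 33 to 43 of the 78 in neurogranin and 46 to 56 of the 62 in PEP-19.

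In typical neurons *Calm2* stood at 2259, 3765 and 4014 CPM. Both mutant libraries were well above the wild-type library and lay close to each other, with log2 ratios of 0.74 (0.70 to 0.77) for heterozygous over wild-type, 0.83 (0.79 to 0.87) for homozygous over wild-type and 0.092 (0.069 to 0.12) for homozygous over heterozygous. *Calm3* followed at a smaller size, with 1288, 1520 and 1573 CPM and log2 ratios of 0.24 and 0.29 for the heterozygous and homozygous libraries over wild-type. The summed level of the 2 genes was therefore 3547, 5285 and 5587 CPM, and *Calm2* carried most of the difference. Other measures moved between the same libraries. In typical cells 5 blood markers summed to 345, 44.6 and 85.8 CPM and 7 endothelial markers to 108, 31.5 and 54.7 CPM, both highest in wild-type, and the median mitochondrial share of UMIs was 10.4, 15.4 and 12.5%. Their part in the differences of the 9 genes was not tested.

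The share of *Calm2* in the UMIs of *Calm2* and *Calm3* together was also different. In typical cells it was 63.7% (62.9 to 64.5), 71.2% (70.9 to 71.6) and 71.8% (71.4 to 72.3), so the intervals of the mutant libraries overlapped each other and lay above that of the wild-type library. In atypical cells it was 59.9, 72.0 and 70.7%, and in outside cells 65.7, 73.8 and 74.3%. These shares compare UMIs within a library, so they do not depend on the total that scales CPM.

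**Figure D1:**
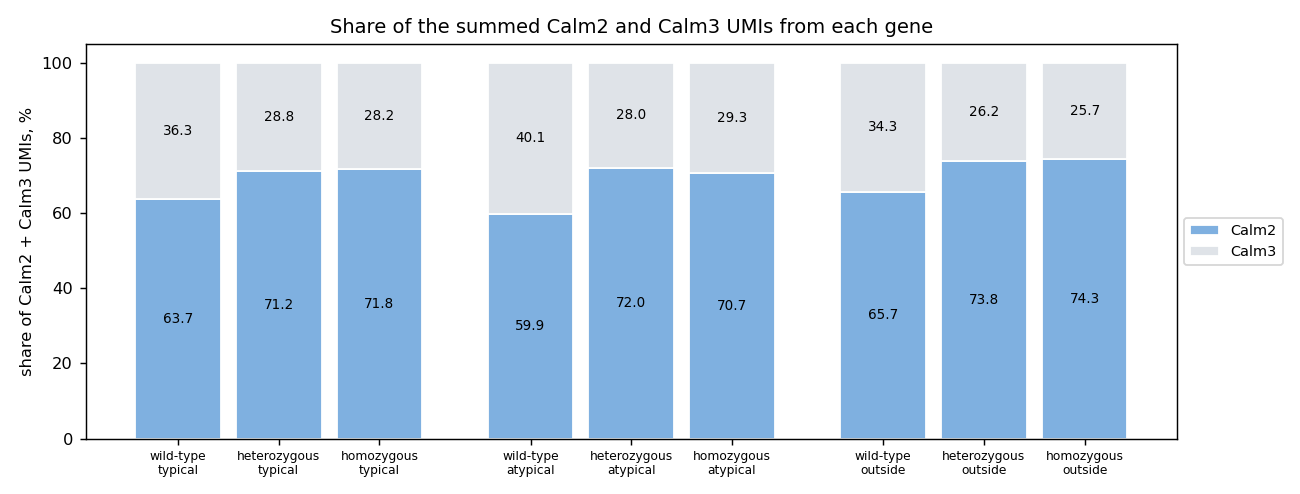
Share of the summed *Calm2* and *Calm3* UMIs (%) that came from each gene, stacked for each library in typical, atypical and outside cells, with the value printed in each segment. The *Calm2* segment spans 59.9 to 65.7% in the 3 wild-type bars and 70.7 to 74.3% in the 6 mutant bars.

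*Ncs1* (chr2:31245823-31295989, plus strand) had the largest ratio of the 9 genes in typical cells, with 111 CPM (100 to 122), 240 CPM (231 to 250) and 258 CPM (245 to 271). The log2 ratios over wild-type were 1.11 (0.96 to 1.27) and 1.22 (1.06 to 1.38), ranks 11 of 4230 and 8 of 4269 genes from the top. After each cell was thinned to 1000 UMIs, 10.0, 20.9 and 21.6% of typical cells held an *Ncs1* UMI, and the interval of the wild-type share (8.65 to 11.5) lay below both others. Without thinning these shares were 20.2, 36.2 and 31.3%. In endothelial-like cells among the outside cells, a non-neuronal type, thinned shares were 2.65, 7.14 and 4.13%. The median UMIs of a typical cell are given above and that of an endothelial-like cell was 2890. The promoter sequence of *Ncs1* in RefSeq (GRCm38.p6), the 150 bases before the start of the annotated gene, is shown because *Ncs1* had the largest ratio. Capitals mark GC boxes (GGGCGG, searched on both strands).
Ncs1, chr2:31245673-31245822, plus strand: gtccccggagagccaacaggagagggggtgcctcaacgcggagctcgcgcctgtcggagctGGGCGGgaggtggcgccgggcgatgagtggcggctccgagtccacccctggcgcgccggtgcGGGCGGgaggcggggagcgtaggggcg
Promoter sequences were matched for *Ncs1*, *Calm3*, *Nrgn*, *Camk2b* and *Pcp4*, 5 of the 9 genes, and not for *Calm2*, *Gap43*, *Camk2a* or *Camk2n1*. The first 250 bases of each promoter sequence were searched, which for *Ncs1* begin 150 bases before the annotated gene and run into it. In them 32.7% of 32851 promoters held a GC box on either strand, as did *Camk2b*, *Ncs1* and *Nrgn*. The T-box core AGGTGTGA was in 1.12% of promoters and in 0 of the 5. At so low a share, 0 is likely for any 5 promoters, so this count says nothing about TBR1 binding.

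In the neuronal calcium sensor family, the EF-hand proteins related to *Ncs1*, 3 genes besides it were also higher in both mutant libraries. Of 7 that passed the filter of a mean of 20 CPM, 4 were at least 25% higher than in wild-type in each mutant library (*Ncs1*, *Hpca*, *Vsnl1* and *Ncald*), and 0 were at least 20% lower, which is the same ratio taken downwards. Over all genes tested, 16.8% were higher by this limit in each mutant library. The other 3 (*Hpcal4*, *Kcnip2* and *Kcnip3*) had log2 ratios of −0.070 to −0.17 in the homozygous library. *Ncs1* was chosen by earlier values of these data, so it adds nothing to the family count, and 3 higher genes remain without it. The median log2 ratio of the family was 0.54 and 0.42, beside 0.059 and 0.078 for all genes tested, and both family medians are the value of *Ncald*. Both medians include *Ncs1* and would be lower without it. When raw UMIs per cell were compared without scaling to depth, the homozygous median was −0.0016, with 1 of the 7 higher and 3 lower by the same limits, beside 0.96% and 52.8% of all genes on that scale. *Vsnl1*, which encodes visinin-like protein, was at 133, 204 and 184 CPM, *Ncald* (neurocalcin delta) at 128, 186 and 171 CPM, and *Hpca* (hippocalcin) at 81.5, 124 and 113 CPM. In these 3 genes the heterozygous library was the highest.

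*Nrgn* had the largest difference of the 9 genes between the mutant libraries. Its typical-cell levels were 1692 (1650 to 1734), 2062 (2034 to 2089) and 2722 CPM (2681 to 2764), and these intervals did not overlap. The log2 ratios were 0.29 (0.24 to 0.33) for heterozygous and 0.69 (0.64 to 0.73) for homozygous over wild-type, and 0.40 (0.37 to 0.43) for homozygous over heterozygous. *Gap43* (chr16:42248442-42340651) was at 2114, 2178 and 2320 CPM, so its log2 ratios over wild-type were 0.043 and 0.13. *Pcp4* went the other way, with 994 (962 to 1027), 807 (790 to 825) and 750 CPM (729 to 772) in typical cells and log2 ratios of −0.30 and −0.41. Among the relatives of GAP-43 that bind membrane lipid and actin, *Marcksl1* had log2 ratios of 0.41 and 0.36 over wild-type and *Basp1* −0.48 and −0.29.

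The CaMKII genes had low levels in typical cells at P5. *Camk2a* (chr18:60925618-60988152) had 97.0 (87.2 to 108), 106 (99.9 to 113) and 125 CPM (116 to 134), so the interval of the homozygous library did not overlap the others and those of the other two libraries did. *Camk2b* (chr11:5969644-6066362) had 123, 144 and 133 CPM, and its homozygous log2 ratio of 0.11 had an interval of −0.053 to 0.28. *Camk2n1* (chr4:138454314-138460123) had 1098, 971 and 973 CPM, log2 ratios of −0.18 and −0.17. Of the UMIs of both kinase genes, *Camk2a* gave 44.1% (40.7 to 47.6), 42.4% (40.5 to 44.3) and 48.5% (46.0 to 51.0).

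**Figure D2:**
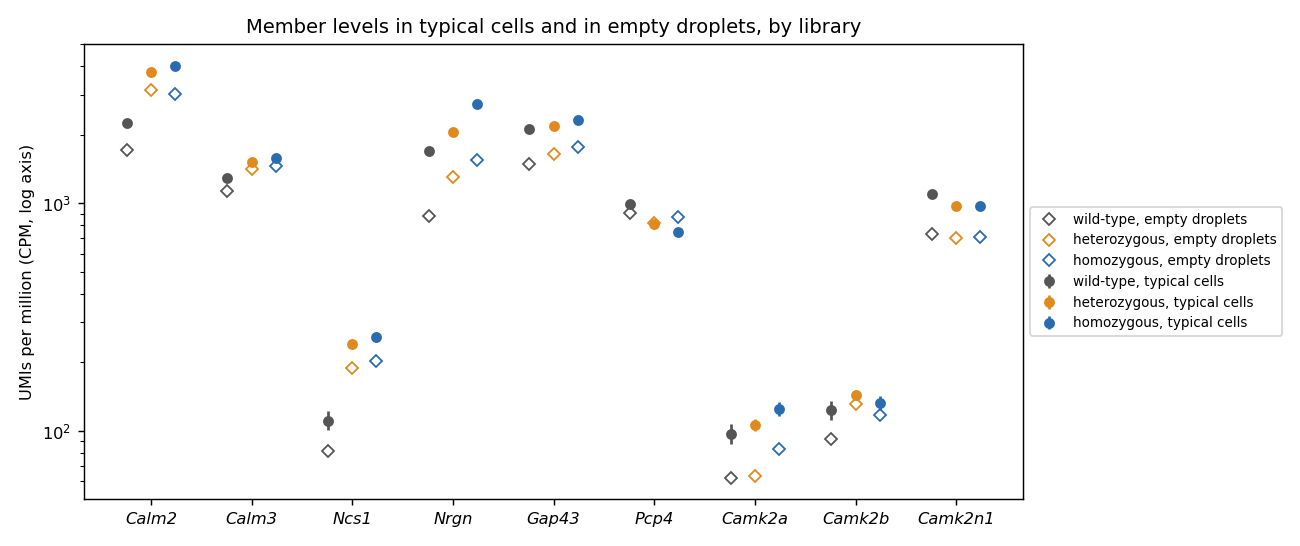
Level (CPM, log axis) of each of the 9 genes in typical cells (filled circles with 95% counting intervals) and in empty droplets (open diamonds) of the wild-type, heterozygous and homozygous libraries. The circles of *Calm2* run from 2259 to 4014 CPM and those of *Ncs1* from 111 to 258 CPM, and in both genes the wild-type diamond is the lowest of the 3 diamonds.

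Counted over the 9 genes, 4 were at least 25% higher in homozygous than in wild-type typical cells (*Calm2*, *Ncs1*, *Nrgn* and *Camk2a*), beside 16.8% of the 4269 genes tested, and 1 was at least 20% lower (*Pcp4*), beside 8.60%. With atypical cells added to typical cells, the homozygous log2 ratio of *Pcp4* was −0.27, short of that limit. *Calm3*, at 1.22-fold, lay just below the limit and *Camk2a*, at 1.29-fold, just above it. With mitochondrial and ribosomal protein genes left out of the total, the log2 ratio of *Camk2a* fell from 0.37 to 0.31, which is under the limit. For heterozygous over wild-type 2 were higher (*Calm2* and *Ncs1*), beside 16.8% of 4230 genes, and 0 were lower, beside 9.86%. With atypical cells added, *Nrgn* (0.46) and *Pcp4* (−0.38) passed these limits too, so that 3 were higher and 1 lower, and with raw UMIs per cell *Pcp4* (−0.39) did. For homozygous over heterozygous 1 was higher (*Nrgn*), beside 4.11% of 4307 genes, and 0 were lower, beside 2.65%. That log2 ratio of *Nrgn* was 0.30 with atypical cells added and 0.068 with raw UMIs per cell, both under the limit. On the raw scale *Pcp4*, *Camk2b* and *Camk2n1* were at least 20% lower in homozygous than in heterozygous cells, beside 49.6% of all genes. *Pcp4* and *Camk2n1* were at least 20% lower in homozygous than in wild-type cells on that scale, beside 52.8%. Both ratios over wild-type share the wild-type library. The median log2 ratio of the 9 genes was 0.23 in heterozygous and 0.29 in homozygous cells. When raw UMIs per cell were compared without scaling, the homozygous median of all genes was −0.34, and *Calm3* (−0.13), *Gap43* (−0.29), *Camk2a* (−0.052) and *Camk2b* (−0.30) had negative homozygous log2 ratios, while *Calm2* (0.41), *Ncs1* (0.80) and *Nrgn* (0.27) remained above 0.

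Of the wider calmodulin pathway, the kinases and their inhibitors had 12 genes tested, of which 4 were at least 25% higher in the homozygous library (*Camk2a*, *Camk1*, *Camkk2* and *Camkv*) and 3 in the heterozygous library (*Camk1*, *Camkk2* and *Camkv*), with 0 lower in either. For this and the lists that follow, the share over all genes was 16.8% higher in each mutant library, and 9.86% lower in the heterozygous and 8.60% lower in the homozygous library. *Camkk2*, the kinase that activates CaMKI and CaMKIV, was at 97.5, 143 and 132 CPM. Of 5 calcineurin genes, *Ppp3r1*, the regulatory B subunit, was higher in both mutant libraries, with log2 ratios of 0.43 and 0.32. The homozygous value lies on the limit, and 0 of the 5 passed it with edgeR TMM or DESeq2 factors, after thinning, after subtraction of the droplet profile or with mitochondrial and ribosomal protein genes left out of the total. A list of other calcium sensors and buffers had 11 genes tested, called EF-hand genes below although *Calr* (calreticulin) has no EF-hand. In it *Sri* (sorcin) was higher in both mutant libraries, with a log2 ratio of 0.50 in each. *Calr* was lower in the homozygous library, at −0.40. The list of IQ motif proteins had 4 genes tested, which include *Nrgn* and *Pcp4* described above, and *Iqsec1*, a guanine nucleotide exchange factor of ARF6, was higher in both, at 0.49 and 0.46. Of the calmodulin-dependent cyclases, phosphodiesterases and other targets, *Atp2b2*, a calcium pump, was higher in the homozygous library (0.48), although 0 of these genes were after thinning, and *Sptan1*, alpha-spectrin, was lower in the heterozygous library (−0.42). With raw UMIs per cell, unscaled, 0 genes of any of these 5 lists were at least 25% higher in the homozygous library, and 6 of 12 kinase, 3 of 5 calcineurin, 9 of 11 EF-hand, 1 of 4 IQ motif and 4 of 6 cyclase and other genes were at least 20% lower, beside 52.8% of all genes on that scale. In the heterozygous library 2 kinase genes and 1 each of the calcineurin, EF-hand and IQ motif genes were higher on that scale, and 1 IQ motif, 2 EF-hand and 1 cyclase or other gene were lower, beside 10.1% of all genes higher and 15.6% lower. These lists were chosen with earlier results of these data known.

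For *Calm2*, *Ncs1* and *Nrgn*, the level in free RNA moved with the level in cells. Empty droplets, taken as barcodes with at least 100 and under 500 UMIs, held *Calm2* at 1706, 3151 and 3014 CPM, log2 ratios over wild-type of 0.88 and 0.82. *Ncs1* was at 81.2, 188 and 203 CPM and *Nrgn* at 876, 1306 and 1551 CPM in the droplets. Their log2 ratios over wild-type were 1.21 and 1.32 for *Ncs1* and 0.58 and 0.82 for *Nrgn*. In droplets the ratios were also above 0 for *Calm3* (0.32 and 0.36), *Gap43* (0.15 and 0.25), *Camk2a* (0.033 and 0.43) and *Camk2b* (0.51 and 0.36). For *Camk2n1* they were −0.063 and −0.055. *Pcp4* was at 907, 816 and 873 CPM in empty droplets, with a homozygous log2 ratio of −0.055 there against −0.41 in typical cells. The part of free RNA in the ratios of typical cells was not tested. After subtraction of the droplet profile at an assumed 10% of UMIs, the homozygous log2 ratios were 0.83 for *Calm2*, 1.21 for *Ncs1*, 0.68 for *Nrgn* and −0.45 for *Pcp4*. The homozygous droplet ratios of *Calm2* and *Ncs1* were close to those in typical cells, so this subtraction could move them little. The level in typical cells over that in droplets of the same library was 1.93, 1.58 and 1.75 for *Nrgn*, 1.32, 1.19 and 1.33 for *Calm2*, and 1.10, 0.99 and 0.86 for *Pcp4*.

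Over single typical cells the differences of *Calm2* and *Nrgn* ran through the whole distribution. At 1000 UMIs per cell the median *Calm2* count was 2, 3 and 4. Cells without a *Calm2* UMI made up 12.3, 3.36 and 2.74%, and cells with 5 or more made up 9.22, 32.4 and 36.4%. For *Nrgn*, cells with 5 or more UMIs were 4.78, 8.75 and 15.6%, and the share of cells with at least 1 was 76.4% (74.4 to 78.4), 80.2% (79.1 to 81.3) and 88.4% (87.4 to 89.4). In endothelial-like cells 21.2, 19.0 and 19.8% held an *Nrgn* UMI at the same thinned depth. Across the clusters of outside cells named by type, described below, the *Nrgn* level was higher than in wild-type in most. These were 8 of 10 clusters of the homozygous and 7 of 8 of the heterozygous library, and no share over all genes was computed for these counts. *Pcp4* was detected in 59.0, 49.7 and 49.0% of typical cells, where its level was 1.10, 0.99 and 0.86 of that in empty droplets. The variance of the thinned count over its mean was 1.15, 1.24 and 1.27 for *Calm2* and 1.03 to 1.11 for *Calm3* in typical cells, where random sampling of equal cells gives about 1.

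**Figure D3:**
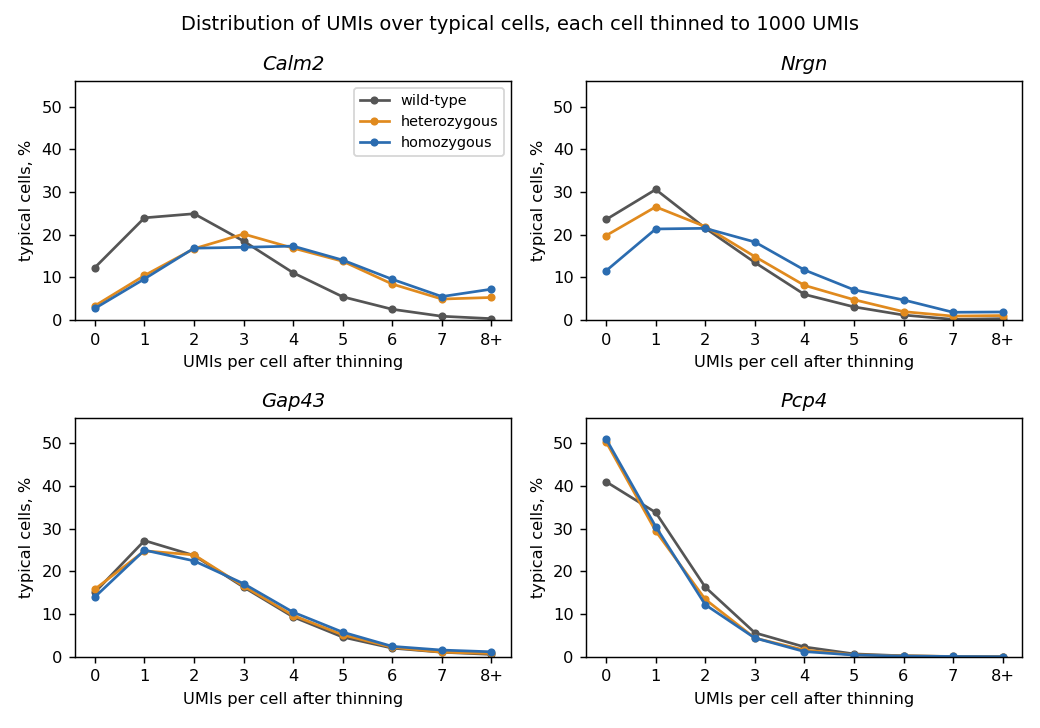
Share of typical cells (%) holding 0, 1, 2 and up to 8 or more UMIs of *Calm2*, *Nrgn*, *Gap43* and *Pcp4* after each cell was thinned to 1000 UMIs, 1 line per library. The mutant lines of *Calm2* lie to the right of the wild-type line, with 32.4 and 36.4% of cells at 5 or more UMIs against 9.22%.

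Atypical neurons held a different mix of the mRNAs of calmodulin-binding proteins from typical neurons of the same library. *Pcp4* was higher in all libraries, with 1949, 4351 and 2582 CPM in atypical cells beside 994, 807 and 750 CPM in typical cells. These are log2 ratios of 0.97 (0.88 to 1.06), 2.43 (2.33 to 2.53) and 1.78 (1.71 to 1.86). In the heterozygous library 45.8% of atypical cells held 5 or more *Pcp4* UMIs at the thinned depth, against 0.821% of typical cells. Of 8 striatal neuron markers, 8 were higher in atypical than in typical cells in each library, and their summed level was 595, 754 and 837 CPM in atypical against 151, 133 and 167 CPM in typical cells. Of 9 excitatory neuron markers only 1, *Bcl11b*, was higher. Inhibitory neuron markers summed to 252, 148 and 158 CPM in atypical against 101, 74.6 and 71.4 CPM in typical cells, and blood markers to 345, 60.1 and 997 CPM against 345, 44.6 and 85.8 CPM. The median mitochondrial share of atypical cells was 10.1, 19.5 and 13.6%. The part of striatal neurons, of these other cells and of mitochondrial share in the *Pcp4* levels was not tested.

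*Nrgn* was lower in atypical cells of the wild-type library (485 against 1692 CPM, log2 ratio −1.80) and of the homozygous library (1082 against 2722 CPM, −1.33), but not of the heterozygous library (2354 against 2062 CPM, 0.19 with an interval of 0.062 to 0.32). *Gap43* was lower in each, with log2 ratios of −0.65, −1.25 and −0.62, as was *Calm2*, with −0.51, −0.61 and −0.54. Of the 9 genes 1 was at least 2-fold lower in wild-type cells (*Nrgn*, beside 1.90% of all genes), 1 in the heterozygous library (*Gap43*, beside 8.40%) and 1 in the homozygous library (*Nrgn*, beside 2.83%). Low *Nrgn* described the neurons set aside, so it adds nothing to these counts. Without it no gene remains in the wild-type and homozygous counts. The count of genes 2-fold higher was 0 in wild-type (beside 3.31%), 1 in heterozygous (*Pcp4*, beside 3.95%) and 1 in homozygous cells (*Pcp4*, beside 2.08%). The wild-type log2 ratio of *Pcp4* (0.97) was just under the limit, and passed it after subtraction of the droplet profile (1.04) and with raw UMIs per cell (1.08). Between libraries, the log2 ratios over wild-type in atypical cells were 0.64 and 0.81 for *Calm2*, 2.28 and 1.16 for *Nrgn* and 1.16 and 0.41 for *Pcp4*, and *Ncs1* was at 104, 194 and 293 CPM. The heterozygous class rested on 107 cells.

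**Figure D4:**
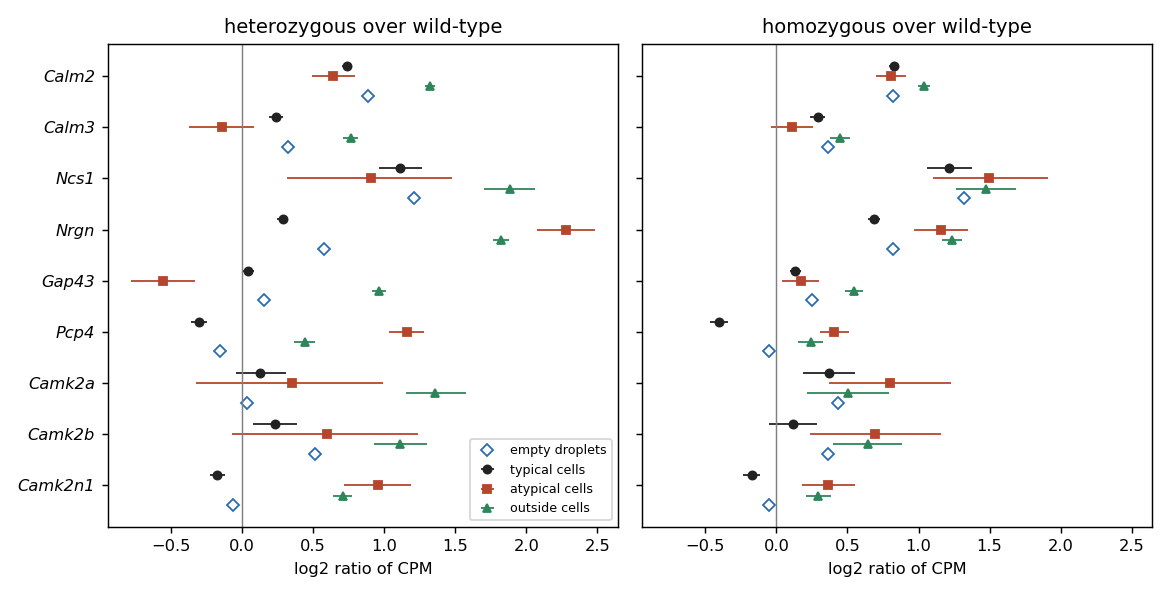
log2 ratio of CPM of each of the 9 genes, heterozygous over wild-type (left) and homozygous over wild-type (right), in typical (circles), atypical (squares) and outside cells (triangles) with 95% counting intervals, and in empty droplets (diamonds). *Calm2* and *Ncs1* lie to the right of 0 in all 4 kinds of barcode, and *Pcp4* lies to the left in typical cells (−0.30 and −0.41) and to the right in atypical and outside cells.

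Cells outside the neuronal list were mixed in type, and their makeup differed between libraries. Of the 9 genes 7 were 2-fold lower in outside than in typical cells of the wild-type library (*Ncs1*, *Nrgn*, *Gap43*, *Pcp4*, *Camk2a*, *Camk2b* and *Camk2n1*), beside 4.07% of all genes. *Nrgn* was used to pick the neuronal clusters, so it adds nothing to this count or to the homozygous one, and 6 and 3 genes remain without it. In the heterozygous library 0 were, beside 0.0204%, and with raw UMIs per cell all 9 genes were higher in outside than in typical cells there (log2 ratios of 0.16 to 0.56). On that raw scale the median log2 ratio of all genes was 0.81, so all 9 genes lay below it. The count was 4 in the homozygous library (*Ncs1*, *Nrgn*, *Gap43* and *Camk2a*), beside 1.30%. The median log2 ratio of all genes in the same comparison was 0.46, 0.14 and 0.29, and it was −0.18, −0.30 and −0.26 with edgeR TMM factors. *Nrgn* had 454, 1607 and 1068 CPM in outside cells, so its ratios over wild-type were larger there (1.82 and 1.24) than in typical cells. A cluster of outside cells led by *Neurod6* and *Fkbp1b* held 274 of 2873, 496 of 1398 and 223 of 1182 cells, with *Nrgn* at 1438, 2648 and 2465 CPM. The part of this makeup in the ratios of all outside cells was not tested.

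Outside cells were therefore clustered without the 9 genes and the pathway lists, which gave 21 clusters, 12 of them named "-like" from at least 3 markers, and levels were compared within clusters of at least 20 cells per library. *Calm2* was higher than in wild-type in 10 of 10 named clusters of the homozygous library, with log2 ratios of 0.37 to 1.05, and in 8 of 8 of the heterozygous library, with 0.47 to 1.08. The interval was above 0 in 9 of 10 and 8 of 8. Where only genes averaging 100 CPM or more in every one of these clusters were tested, *Calm2* was the one of 5 and of 6 members with this pattern, beside 4.93% of 750 and 6.43% of 747 genes tested for the homozygous and the heterozygous library. Inhibitory neuron-like cells had 1417, 2234 and 2706 CPM of *Calm2*, astrocyte-like cells 809, 1712 and 1628 CPM, and endothelial-like cells 702, 973 and 1087 CPM. Each of these levels lay below that of *Calm2* in empty droplets of the same library (1706, 3151 and 3014 CPM). The larger microglia-like cluster, described at the end, lay above it. *Ncs1* was under the minimum of 100 CPM, so no share over all genes stands beside its counts. It was higher in 9 of 9 and 8 of 8 clusters with UMIs in both libraries, some with as few as 4 to 6 UMIs a library, and its interval was above 0 in 6 of 9 and 6 of 8. In the remaining homozygous cluster, an oligodendrocyte lineage-like one, *Ncs1* had 0 UMIs against 3 in wild-type. *Nrgn* was higher in 8 of 10 and 7 of 8, with the interval above 0 in 8 of 10 and 6 of 8. *Nrgn* in astrocyte-like cells was at 461, 1176 and 1236 CPM and in mural-like cells at 402, 726 and 886 CPM, below the level of empty droplets in the same library. *Pcp4* was above 0 in 6 of 10 homozygous and 3 of 8 heterozygous clusters. Whether free RNA carried the differences into these clusters was not tested.

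**Figure D5:**
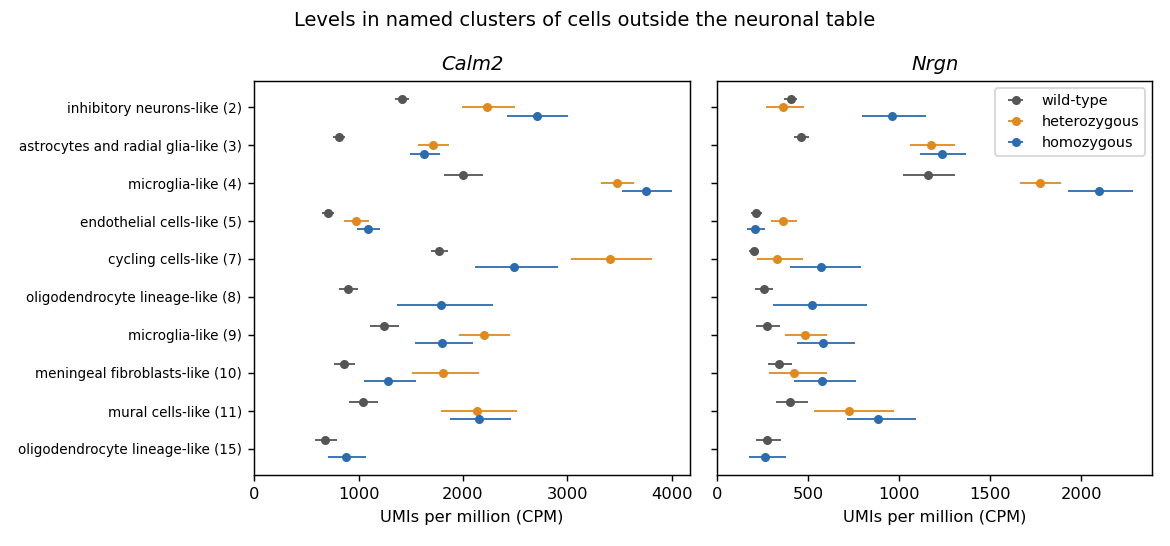
Level (CPM) of *Calm2* and *Nrgn* in the named clusters of cells outside the neuronal list, 1 point per library with at least 20 cells and a 95% counting interval. For *Calm2* the wild-type points (677 to 1998 CPM) lie to the left of the homozygous points in each of the 10 clusters shown.

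Over the 9 sums of library and class, the genes whose log2 level ran closest to that of *Calm2* were *Sub1*, *Pfdn4* and *Pfdn2* (Pearson's r = 0.963, 0.962 and 0.956), and those closest to *Nrgn* were *Abhd17a*, *Fam57b* and *Acsbg1* (r = 0.977, 0.962 and 0.957), out of 4894 genes compared. The 9 points share 3 libraries, so these correlations are a description.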

How the data were processed

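tdTomato-positive mPFC cells were profiled with 10X Chromium Single Cell 3′ v2 chemistry. Per the labels and methods, the authors aligned and counted reads with Cell Ranger 2.0.1 on mm10 and kept cells by mitochondrial share, UMIs and genes. The deposited filtered table holds raw UMI counts, and the deposited mitochondrial share is a fraction of each cell's UMIs. The counts of the 9 genes equaled those of the 3 library matrices in every cell. The deposited normalized neuronal table was not used. The authors tested cells with MAST, which was not repeated.

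Raw UMIs were summed per library and class and divided by their total. Ratios carry exact conditional binomial intervals, levels exact Poisson and shares exact binomial (Clopper-Pearson) intervals, at a level of 95%. Genes with a mean of 20 CPM were compared. Thinning to 1000 UMIs per cell left out no cell. Outside cells were clustered on thinned counts (2000 variable genes, 25 components, 15 neighbors, leidenalg 0.10.2 at resolution 1). No doublet caller was run. Cells of a library are not replicates, so no p-value was computed. Ratios and intervals were checked on simulated data. Alternatives used edgeR 4.0.16 and DESeq2 1.42.0 factors among others. All 9 genes are named, and the genes and lists were chosen with earlier results of these data known.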

Additional observations from a re-analysis of the deposited data

Results flagged for a closer look

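The difference between atypical and typical cells had opposite signs in different libraries, with counting intervals clear of 0 on both sides, for 2 of the 9 genes. *Ncs1* and *Camk2b* also changed sign, with intervals that included 0 in each library. For *Nrgn* the log2 ratio of atypical over typical cells was −1.80 (−1.97 to −1.64) for wild-type and −1.33 (−1.44 to −1.23) for homozygous cells, whereas heterozygous cells gave 0.19 (0.062 to 0.32). Low *Nrgn* was part of how the authors described the cells they set aside, so this gene's ratios are not independent of that choice, and the heterozygous ratio has the opposite sign to it. For *Camk2n1* the values were −0.90 (−1.05 to −0.75) and −0.36 (−0.49 to −0.24), whereas heterozygous cells gave 0.23 (0.039 to 0.41). The heterozygous values rest on 107 atypical cells with 509 UMIs of *Nrgn* and 246 of *Camk2n1*. The difference between libraries was not tested, since each genotype is 1 library.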

How the results depend on the processing

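Of 87 counts of the 9 genes under an alternative, 71 stayed within 1.5 times the reported count and 16 did not, and the cause was not tested. With raw UMIs per cell, unscaled, the count higher was 2 for homozygous over wild-type, beside 0.96% of all genes, and 0 for homozygous over heterozygous, beside 0.511%. The count lower in outside cells on that scale was 1 in the wild-type library, beside 0.45%, and 0 in the homozygous library, beside 0.0382%. The log2 ratio of *Camk2a*, homozygous over wild-type, reversed there to −0.052. With edgeR TMM and with DESeq2 factors, the count lower was 2 in wild-type atypical cells, beside 3.29 and 2.79% of all genes. It was 9 in homozygous outside cells, beside 11.8 and 8.72%, where the median of all genes moved from 0.29 to −0.26 and −0.16. Thinning left 2 lower in homozygous outside cells, beside 1.13%. A 4-fold limit left 0 lower in each of the 5 cell-class comparisons that had counts above 0, beside 0 to 0.871% of all genes. For homozygous over heterozygous, a 1.5-fold limit and the addition of atypical cells each left 0 higher, beside 0.673 and 4.46% of all genes. Of 675 log2 ratios under an alternative, 455 stayed within their counting interval and 33 changed sign. No paired analysis was possible because each genotype is 1 library. Depth limits *Ncs1*, *Camk2a* and *Camk2b* most, with 29 to 136 UMIs in each atypical class except for *Ncs1* in the homozygous library (218).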

Other observations

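Among outside cells of unnamed type, a cluster led by *Reln* and *Ndnf*, with 49 wild-type, 14 heterozygous and 6 homozygous cells, had *Pcp4* at 2842, 2539 and 4751 CPM and *Gap43* at 2488, 2589 and 2991 CPM, while *Nrgn* was at 193, 316 and 484 CPM. A cluster led by *Npy* and *Sst*, with 126, 101 and 111 cells, had *Calm2* at 2368, 4638 and 4992 CPM, the highest *Calm2* level of any cluster in the homozygous library, and *Gap43* at 1855, 1842 and 1990 CPM.

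*Gap43* and *Calm2* were higher in the larger of the 2 microglia-like clusters (508 cells) than in the other (177 cells) in each library. *Gap43* was at 1432, 1755 and 1710 CPM in the larger cluster and at 453, 629 and 485 CPM in the other, beside 1486, 1653 and 1765 CPM in empty droplets. The larger cluster held *Calm2* at 1998, 3479 and 3759 CPM and the other at 1243, 2197 and 1802 CPM, beside 1706, 3151 and 3014 CPM in empty droplets. Typical neurons had *Calm2* at 2259, 3765 and 4014 CPM and *Gap43* at 2114, 2178 and 2320 CPM. The median cell held 1751 UMIs in the larger cluster and 2381 in the other. The part of neuronal RNA in these levels was not tested.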
